A study of Ovis aries with 16 samples.

Results

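The comparison set visceral fat of adult female sheep exposed to bisphenol A (BPA) before birth against visceral fat of control sheep. Its members were the libraries that the sample titles mark as visceral and as control or BPA, 8 of the 16 libraries of the study, with 4 in each group; the other 8 came from subcutaneous fat. Mothers of the BPA group were injected under the skin every day with 0.5 mg/kg of BPA in corn oil over gestational days 30 to 90, where term is about 147 days, and mothers of the controls received the corn oil alone over the same days. Both groups of daughters were kept on a maintenance diet meant to prevent obesity, had their estrus synchronized with 2 injections of 10 mg of prostaglandin F2α given 11 days apart, and were sampled at about 21 months of age, 24 hours after the second injection. No breed or genotype is named in the labels. The visceral samples were mesenteric fat around the ventral sac of the rumen. The titles carry a different number for each visceral library, 902, 908, 924 and 928 for the controls and 910, 918, 977 and 984 for BPA, and these numbers name the libraries here. The labels do not say outright that each number is an animal, so the p-values measure the spread between these 4 and 4 samples.

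BPA is a component of polycarbonate plastics and epoxy resins that binds estrogen receptors weakly and acts on other nuclear receptors. Adipocytes store fat as triglyceride, built by enzymes such as DGAT1, and sit in a stroma of progenitor cells, fibroblasts, vessels and immune cells that lays down a collagen-rich matrix. Mesenteric fat is covered by mesothelium, the flat epithelium of the abdominal cavity, which subcutaneous fat lacks.

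Libraries were made from ribosome-depleted RNA and deposited as whole read counts for 28524 genes. Totals ran from 10998858 to 13110261 counts in the visceral controls and from 6768945 to 14305764 in the BPA group, with BPA 977 lowest and BPA 984 highest. Levels below are CPM (counts scaled to a library total of 1000000), scaled over the 8 visceral libraries, and are always listed for controls 902, 908, 924 and 928 and then for BPA 910, 918, 977 and 984; fold changes are log2 estimates of BPA over control, with their standard error (SE), from the fit of these 8 libraries. The depot label held against its markers. ADIPOQ, which encodes the adipocyte hormone adiponectin, was at 10812, 10930, 6945 and 12329 CPM in the controls and 8510, 9260, 5689 and 10277 CPM with BPA. On a scale common to all 16 libraries, WT1, a transcription factor of mesothelium, lay between 11.1 and 59.1 CPM in the 8 visceral libraries and between 0 and 0.23 CPM in the 8 subcutaneous ones. TBX15, a transcription factor that marks subcutaneous fat, lay between 0 and 3.89 CPM in visceral and between 29.3 and 44.3 CPM in subcutaneous libraries. Among markers of rumen and gut epithelium, KRT5, KRT14, KRT4, KRT6A, DSG1 and CDX2 had 0 counts in all 8 visceral libraries. There 3 counts, the limit that a count of 0 allows, correspond to 0.210 to 0.443 CPM, and such limits cover counting error only. Other markers of that list were present. DSP lay between 31.2 and 489 CPM and PPL between 128 and 786 CPM. EVPL lay between 2.67 and 32.3 CPM and CDH1 between 0.289 and 6.21 CPM. DSP, PPL and CDH1 were highest in BPA 977, and DSP, EVPL and CDH1 lowest in BPA 984. UCP1, the uncoupling protein of brown fat, had 0 counts in 7 visceral libraries and 2 counts in BPA 984. BPA 977 stood apart before any gene was tested: the first principal component, with 39.7% of the variance, placed it at 96.8 and the other 7 between -32.2 and 13.996. Results that rest on BPA 977 or BPA 918 are therefore given with and without them. The tissue is bulk RNA, so fewer cells of a type and less RNA per cell cannot be told apart.

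No gene passed the threshold in visceral fat. Of 14774 genes tested with edgeR's quasi-likelihood test, 0 (0%) had a Benjamini-Hochberg adjusted p under 0.05, and the smallest adjusted p was 0.658. DESeq2 called 6 genes (0.0406%), 3 higher and 3 lower with BPA. At an unadjusted p under 0.05 the edgeR test gave 1103 genes (7.47%), where 5% of the genes tested would be 739; 755 of them (5.11%) had higher and 348 (2.36%) lower estimates. That lean toward higher estimates was not seen without BPA 977, where 337 genes had higher and 346 lower estimates at the same unadjusted threshold. Over all 14774 genes the split was nearly even, with 7429 higher estimates (50.3%) and a median of 0.00. In 601 genes (4.07%) the CPM of the groups did not overlap: all 4 BPA libraries lay above all 4 controls in 349 (2.36%) and below them in 252 (1.71%). The genes described next are the 12 of smallest p in each direction that have a symbol, and all 24 share the adjusted p of 0.658 in edgeR's test. They are given as levels and differences, not as calls. In 21 of the 24 the groups did not overlap. Their choice by p in this same comparison favors such a lack of overlap, so it adds no support for any of them.

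Genes with lower levels in the BPA group included several of the matrix and the stroma. DDR2, a receptor tyrosine kinase that is activated by fibrillar collagen, had the smallest p of the genes tested with a symbol. DDR2 was at 259, 287, 321 and 313 CPM in the controls and 203, 190, 157 and 161 CPM with BPA, so the groups did not overlap and the highest BPA library lay below the lowest control. Its log2 fold change was -0.73 ± 0.15 (SE, n = 4 per group), and DESeq2 gave it an adjusted p of 0.0235. MFAP5, a glycoprotein of the microfibrils that surround elastic fibers, was at 51.2, 58.2, 42.7 and 72.7 CPM in the controls and 27.0, 28.9, 30.9 and 33.9 CPM with BPA. The BPA libraries were close together and all under the controls, with a log2 fold change of -0.90 ± 0.18 (SE, n = 4 per group) and a DESeq2 adjusted p of 0.0427. ALDH1A1, which oxidizes retinaldehyde to retinoic acid, was at 400, 409, 442 and 341 CPM against 287, 205, 107 and 136 CPM. The groups again did not overlap, and the spread was wider with BPA, where BPA 910 was highest and BPA 977 lowest; the log2 fold change was -1.12 ± 0.27 (SE, n = 4 per group).

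Innate immune and clotting genes formed another share of the lower group. C4BPA, the alpha chain of a plasma protein that restrains the complement cascade, was at 42.3, 43.8, 28.4 and 13.8 CPM in the controls and 6.43, 14.1, 11.8 and 6.28 CPM with BPA. Control 928 lay just under BPA 918, so the groups overlapped; the log2 fold change was -1.74 ± 0.39 (SE, n = 4 per group), with an adjusted p of 0.0437 in DESeq2. C7, a subunit of the membrane attack complex of complement, was at 174, 109, 220 and 179 CPM against 78.1, 114, 56.3 and 60.5 CPM, and here control 908 and BPA 918 overlapped (log2 fold change -1.15 ± 0.26, SE). CYBB, the catalytic subunit of the phagocyte NADPH oxidase, was at 34.5, 23.7, 33.0 and 36.8 CPM against 22.2, 21.5, 15.2 and 15.8 CPM. Its groups did not overlap, although control 908 was close to BPA 910 (log2 fold change -0.78 ± 0.20, SE). PSTPIP2, an adaptor protein of the membrane and cytoskeleton known from macrophages, was at 26.3, 23.8, 15.4 and 10.9 CPM against 5.68, 6.05, 7.66 and 10.2 CPM, with control 928 and BPA 984 nearly touching (-1.36 ± 0.32, log2 fold change and SE). FGB, the beta chain of fibrinogen, was low in every library, at 5.37, 6.91, 6.32 and 4.41 CPM against 2.57, 2.81, 2.17 and 1.15 CPM, without overlap (-1.41 ± 0.36, log2 fold change and SE).

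The remaining lower genes were receptors and enzymes of signalling and metabolism. LPAR6, a receptor for lysophosphatidic acid, was at 17.9, 13.5, 12.6 and 12.5 CPM in the controls and 6.54, 8.53, 4.48 and 7.87 CPM with BPA (log2 fold change -1.04 ± 0.25, SE). GPR1, a receptor for the adipokine chemerin, was at 12.6, 10.7, 7.54 and 11.2 CPM against 5.15, 3.46, 6.36 and 4.47 CPM (-1.12 ± 0.27, log2 fold change and SE). Neither receptor overlapped between groups. PPM1K, the mitochondrial phosphatase that activates the breakdown of branched-chain amino acids, was at 50.6, 64.7, 57.0 and 76.5 CPM against 45.8, 25.5, 39.1 and 28.3 CPM (-0.85 ± 0.22, log2 fold change and SE). RAB3B, a small GTPase of regulated secretion, was at 19.8, 12.8, 20.8 and 10.4 CPM against 9.22, 6.69, 2.74 and 4.62 CPM (-1.45 ± 0.37, log2 fold change and SE). In both genes BPA 910 was the BPA library nearest to the controls, and the groups did not overlap.

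Genes with higher levels in the BPA group included an enzyme of fat storage and an inhibitor of NF-kappaB. DGAT1, which catalyses the last step of triglyceride synthesis, was at 53.8, 60.4, 62.3 and 44.1 CPM in the controls and 68.6, 107, 113 and 96.9 CPM with BPA. The groups did not overlap, BPA 910 was the lowest of its group, and the log2 fold change was 0.80 ± 0.19 (SE, n = 4 per group). NFKBIA, which holds NF-kappaB in the cytoplasm and is itself a target of it, was at 49.4, 54.9, 50.2 and 55.0 CPM against 79.8, 63.6, 105 and 99.01 CPM. The controls lay close together while the BPA libraries spread more widely, and no overlap was seen (log2 fold change 0.73 ± 0.17, SE). ARSD (LOC101116024 in the table, named through RefSeq), a member of the arylsulfatase family, was at 15.9, 12.6, 23.4 and 16.0 CPM against 29.6, 68.2, 46.4 and 29.6 CPM, with a log2 fold change of 1.35 ± 0.30 (SE) and a DESeq2 adjusted p of 0.0491. ARID3A, a DNA-binding transcription factor, was at 37.8, 44.3, 34.9 and 41.8 CPM against 49.2, 70.7, 102 and 72.9 CPM (0.89 ± 0.21, log2 fold change and SE). HDGF, a growth factor that binds heparin, was at 95.3, 104, 111 and 104 CPM against 141, 142, 194 and 152 CPM (0.60 ± 0.15, log2 fold change and SE). For ARSD, ARID3A and HDGF each BPA library was above each control.

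The other higher genes included several with very few counts. SAMD11 was at 13.6, 13.7, 12.3 and 12.2 CPM against 17.0, 26.5, 23.8 and 27.1 CPM (log2 fold change 0.86 ± 0.19, SE). NAV2, a protein of neurite outgrowth, was at 99.2, 78.0, 110 and 96.0 CPM against 117, 163, 155 and 169 CPM (0.66 ± 0.16, log2 fold change and SE). FUK, the kinase that salvages free fucose, was at 12.03, 11.9, 14.5 and 13.7 CPM against 19.8, 31.9, 54.6 and 20.6 CPM; its log2 fold change of 1.28 ± 0.31 (SE) was 0.88 without BPA 977. None of these genes overlapped between groups. BRSK1, a kinase best known from neurons, was at 0.426, 0.273, 0.405 and 0 CPM in the controls and 1.61, 3.56, 1.44 and 1.73 CPM with BPA, so its fold change rests on few counts. SLCO4A1, an organic anion transporter, was at 0.597, 0.0909, 0.487 and 0.0787 CPM against 1.82, 0.972, 3.03 and 2.81 CPM. BRSK1 and SLCO4A1 passed the filter on counts only through the BPA libraries, where they are high. Their place among the higher genes and their lack of overlap therefore carry no weight. SHANK1, a scaffold protein of synapses, was at 0.938, 1.27, 1.78 and 0.865 CPM against 2.89, 4.53, 22.4 and 2.81 CPM. BPA 977 alone was far above the others in SHANK1, and its log2 fold change of 2.72 ± 0.71 (SE) was 1.47 without that library. KRT23, a keratin, was at 2.90, 1.36, 2.92 and 8.97 CPM against 13.8, 19.3, 17.6 and 8.80 CPM, where control 928 lay above BPA 984.

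**Figure D1:**
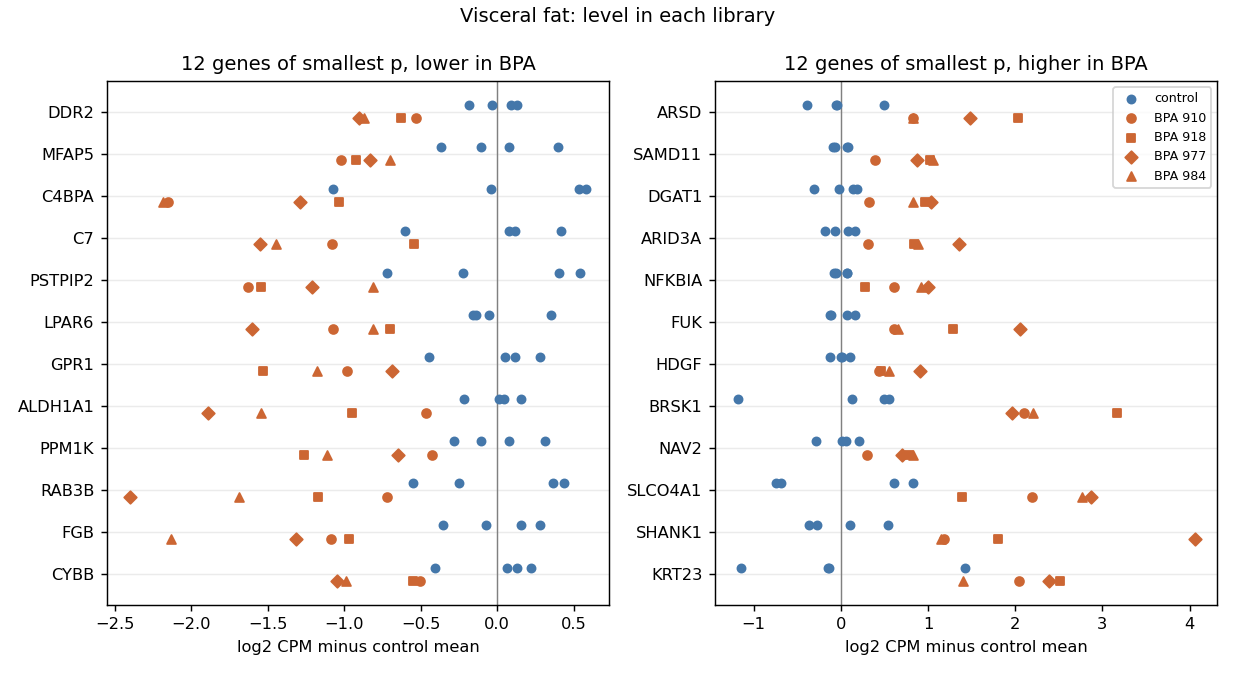
Level of the 24 genes of smallest p in each of the 8 visceral libraries, as log2 CPM minus the mean of the 4 controls (blue circles, controls; orange symbols, the 4 BPA libraries). DDR2 and MFAP5 show BPA symbols wholly to the left of the controls, C4BPA, C7 and KRT23 are the 3 genes that overlap, and SHANK1 has 1 distant BPA library, 977.

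Lists of genes with a shared role were then read by how many of their tested members had higher or lower estimates, beside 50.3% higher estimates and a median of 0.00 over all genes. No member of any list passed the adjusted threshold. Over all genes 7.47% had an unadjusted p under 0.05, 5.11% with higher and 2.36% with lower estimates. A single such member in a list is therefore not read as a result about the list. The 23 tested adipocyte and lipid storage genes split into 11 higher and 12 lower estimates (median -0.03), and the only member with an unadjusted p under 0.05 was DGAT1. PPARG, the master regulator of adipocyte formation, overlapped between groups and was at 218, 329, 195 and 273 CPM against 220, 246, 157 and 349 CPM (log2 fold change -0.06 ± 0.25, SE). LEP, the hormone leptin, was at 662, 290, 588 and 409 CPM against 663, 261, 122 and 102 CPM; BPA 910 lay just above the highest control and the other 3 BPA libraries under all controls (-0.76 ± 0.53, log2 fold change and SE). FASN, fatty acid synthase, was at 503, 251, 491 and 824 CPM against 386, 657, 354 and 236 CPM, and SCD, which makes monounsaturated fatty acids, at 550, 874, 396 and 711 CPM against 401, 501, 871 and 628 CPM; both overlapped. Of 14 fatty acid synthesis genes, 6 had higher and 8 lower estimates. MLXIPL, a carbohydrate-responsive transcription factor of lipid synthesis, had the smallest p among them and was at 53.6, 67.9, 51.2 and 50.9 CPM against 54.1, 157, 97.2 and 119 CPM. In MLXIPL, BPA 910 lay among the controls and the other 3 BPA libraries above them (0.93 ± 0.27, log2 fold change and SE). The 13 lipolysis genes held 7 higher and 6 lower estimates with no unadjusted p under 0.05. Of 13 fatty acid oxidation genes 10 had lower estimates (median -0.15, and -0.05 without BPA 977), with CPT1B, the mitochondrial fatty acid carrier enzyme of muscle type, at 18.2, 12.6, 16.5 and 9.44 CPM against 12.01, 6.37, 5.34 and 9.74 CPM.

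Receptors for hormones and the insulin pathway showed no large difference. Of the 14 steroid and xenobiotic receptor genes tested, 4 had higher and 10 lower estimates (median -0.16), none with an unadjusted p under 0.05. ESR1, the estrogen receptor alpha, was at 91.9, 106, 85.2 and 140 CPM in the controls and 131, 88.3, 44.3 and 93.6 CPM with BPA, an overlap in which BPA 977 was lowest (log2 fold change -0.24 ± 0.29, SE). INSR, the insulin receptor, was at 402, 569, 417 and 405 CPM against 444, 354, 290 and 601 CPM (-0.09 ± 0.23, log2 fold change and SE). AKT1, a kinase downstream of it, was at 159, 153, 177 and 170 CPM against 205, 182, 269 and 221 CPM without overlap (0.41 ± 0.15, log2 fold change and SE), and was the 1 of 16 insulin signalling genes with an unadjusted p under 0.05. Among 15 clock genes the corresponding gene was PER2, a repressor of the circadian loop, at 75.8, 79.6, 84.1 and 67.4 CPM against 93.4, 95.0, 147 and 137 CPM, also without overlap (0.62 ± 0.18, log2 fold change and SE). Counts of 1 of 16 and 1 of 15 are near the 7.47% of all genes at that threshold.

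Stromal progenitor markers leaned lower, while matrix genes as a list had a median close to that of all genes when all 8 libraries were used. Of 17 tested progenitor and stromal markers 13 had lower estimates (median -0.20, and -0.26 without BPA 918 and BPA 977), and 5 had lower estimates at an unadjusted p under 0.05. These 5 were MFAP5, PI16, DPP4, LUM and DCN, beside 2.36% of all genes that were lower at that threshold. PI16, a marker of fibroblast progenitors, was at 31.5, 16.8, 23.8 and 41.9 CPM in the controls and 17.4, 14.1, 9.24 and 14.6 CPM with BPA, an overlap set by control 908 and BPA 910 (log2 fold change -1.04 ± 0.29, SE). DPP4, a surface peptidase that marks early adipose progenitors, was at 13.9, 15.004, 12.5 and 11.1 CPM against 5.79, 10.7, 9.68 and 3.75 CPM, without overlap (-0.82 ± 0.32, log2 fold change and SE). Of 30 extracellular matrix genes 18 had lower and 12 higher estimates (median -0.03). Without BPA 918 and BPA 977 the matrix median was -0.28, close to the -0.26 of the stromal list. MFAP5, FBN1, LUM, DCN and the collagen crosslinking enzyme LOX were lower at an unadjusted p under 0.05, and COL5A1 was higher. MFAP5, LUM and DCN belong to both lists, so the lists are not separate evidence. FBN1, the main protein of microfibrils, was at 1309, 1571, 1787 and 2208 CPM against 1129, 1261, 1219 and 1415 CPM, so that BPA 984 overlapped control 902 (-0.45 ± 0.18, log2 fold change and SE). COL5A1, a chain of type V collagen, was at 472, 310.0, 489 and 452 CPM against 529, 916, 1561 and 335 CPM. Its estimate rested largely on BPA 977, being 0.96 ± 0.40 with that library and 0.46 without it on the log2 scale. FN1, fibronectin, was at 2684 CPM in BPA 977 and between 255 and 441 CPM in the other 7 libraries, and its log2 estimate of 1.30 became -0.20 without BPA 977. Of the 11 collagen receptor and integrin genes 8 had lower estimates (median -0.22). Both DDR2 and ITGA1, the alpha chain of a collagen-binding integrin, lay below all controls in all 4 BPA libraries, beside 1.71% of all genes.

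Complement and antioxidant genes also held more lower than higher estimates. Of 16 complement genes 13 had lower estimates (median -0.19), with C4BPA, C7 and CD59 at an unadjusted p under 0.05 and none of the higher 3 there. Over all genes 2.36% were lower at that threshold. CD59, a membrane protein that blocks the attack complex, was at 155, 147, 138 and 148 CPM against 130, 101, 84.1 and 132 CPM, without overlap (log2 fold change -0.39 ± 0.17, SE). Of 22 oxidative stress defence genes 17 had lower estimates (median -0.13, and 0.00 without BPA 918 and BPA 977). SOD1, the cytosolic superoxide dismutase, had the smallest p of these, at 199.6, 205, 234 and 140 CPM against 128, 129, 96.8 and 158 CPM (-0.60 ± 0.20, log2 fold change and SE). Control 928 lay within the BPA range there. Of 16 macrophage and monocyte markers 6 had higher and 10 lower estimates, none with an unadjusted p under 0.05, and CD68, a lysosomal protein of macrophages, was at 51.3, 34.1, 48.7 and 46.8 CPM against 48.4, 43.6, 40.01 and 60.6 CPM. Of 14 NF-kappaB and cytokine genes, NFKBIA was the only one with an unadjusted p under 0.05. IL6, an inflammatory cytokine, had between 0 and 0.315 CPM in the 8 libraries.

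Smooth muscle markers leaned higher, while general endothelial markers did not. Of 15 smooth muscle and pericyte markers 14 had higher estimates (median 0.45, and 0.28 without BPA 918). Of these, 5 had an unadjusted p under 0.05, beside 5.11% of all genes that were higher at that threshold. They were LMOD1, SMTN, TPM2, DES and MYH11. LMOD1, a protein that starts actin filaments in smooth muscle, was at 91.6, 34.3, 84.0 and 46.3 CPM in the controls and 114, 194, 183 and 86.9 CPM with BPA. BPA 984 lay among the controls in LMOD1 and the other 3 above them (log2 fold change 1.17 ± 0.35, SE). MYH11, the smooth muscle myosin heavy chain, was at 535, 71.8, 299 and 142 CPM against 298, 2146, 290.2 and 515 CPM, so that BPA 918 alone exceeded control 902; its log2 estimate was 1.63 with BPA 918 and 0.49 without it. FLT4, the VEGF receptor of lymphatic vessels, was at 9.30, 4.36, 8.68 and 11.4 CPM against 13.2, 23.9, 22.1 and 15.2 CPM, without overlap (1.13 ± 0.31, log2 fold change and SE). PROX1, the transcription factor that sets lymphatic identity, was at 9.47, 5.27, 12.7 and 14.002 CPM against 13.1, 27.6, 16.2 and 13.8 CPM, with overlap. LYVE1, a hyaluronan receptor of the same vessels, went the other way in 3 of 4 BPA libraries, at 23.5, 35.3, 36.1 and 35.6 CPM against 10.1, 17.9, 19.9 and 50.4 CPM. The 7 tested lymphatic markers thus split into 4 higher and 3 lower estimates. At an unadjusted p under 0.05 there were 3 higher members, FLT4, PROX1 and RELN, and 0 lower ones. Over all genes 5.11% were higher at that threshold. Of 14 general endothelial markers 11 had lower estimates (median -0.19).

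Chromatin enzymes had mostly higher estimates, 23 of 26, with a median of 0.19 and of 0.12 without BPA 977. UHRF1, which guides maintenance of DNA methylation, was at 2.56, 1.09, 4.05 and 2.83 CPM in the controls and 3.65, 4.21, 24.4 and 2.38 CPM with BPA, so only BPA 977 lay beyond the other libraries by a wide margin. EZH2, the methyltransferase of Polycomb repression, was at 7.33, 4.27, 6.32 and 4.33 CPM against 6.65, 7.77, 23.0 and 6.71 CPM, again with BPA 977 far highest. DNMT1, the maintenance DNA methyltransferase, was at 91.7, 92.1, 103 and 110.4 CPM against 100.03, 113, 190 and 112 CPM (log2 fold change 0.37 ± 0.20, SE, and 0.12 without BPA 977). Cytosolic ribosomal protein genes had lower estimates in 66 of 77 (median -0.19, and -0.06 without BPA 977), and respiratory chain subunit genes in 45 of 58 (median -0.16, and -0.03 without it). The 4 ribosomal protein genes with an unadjusted p under 0.05 were all higher, against the direction of their list. RPS6 and RPS29 among them did not overlap between groups. Both counts out of 77 are near the shares over all genes, 5.11% higher at that threshold and 2.36% with all BPA libraries above all controls. RPS6, a protein of the small subunit, was at 158, 183, 187 and 186 CPM against 204, 212, 214 and 251 CPM. Genes of this family have near-identical copies in the genome, so their counts are uncertain where reads could be split.

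**Figure D2:**
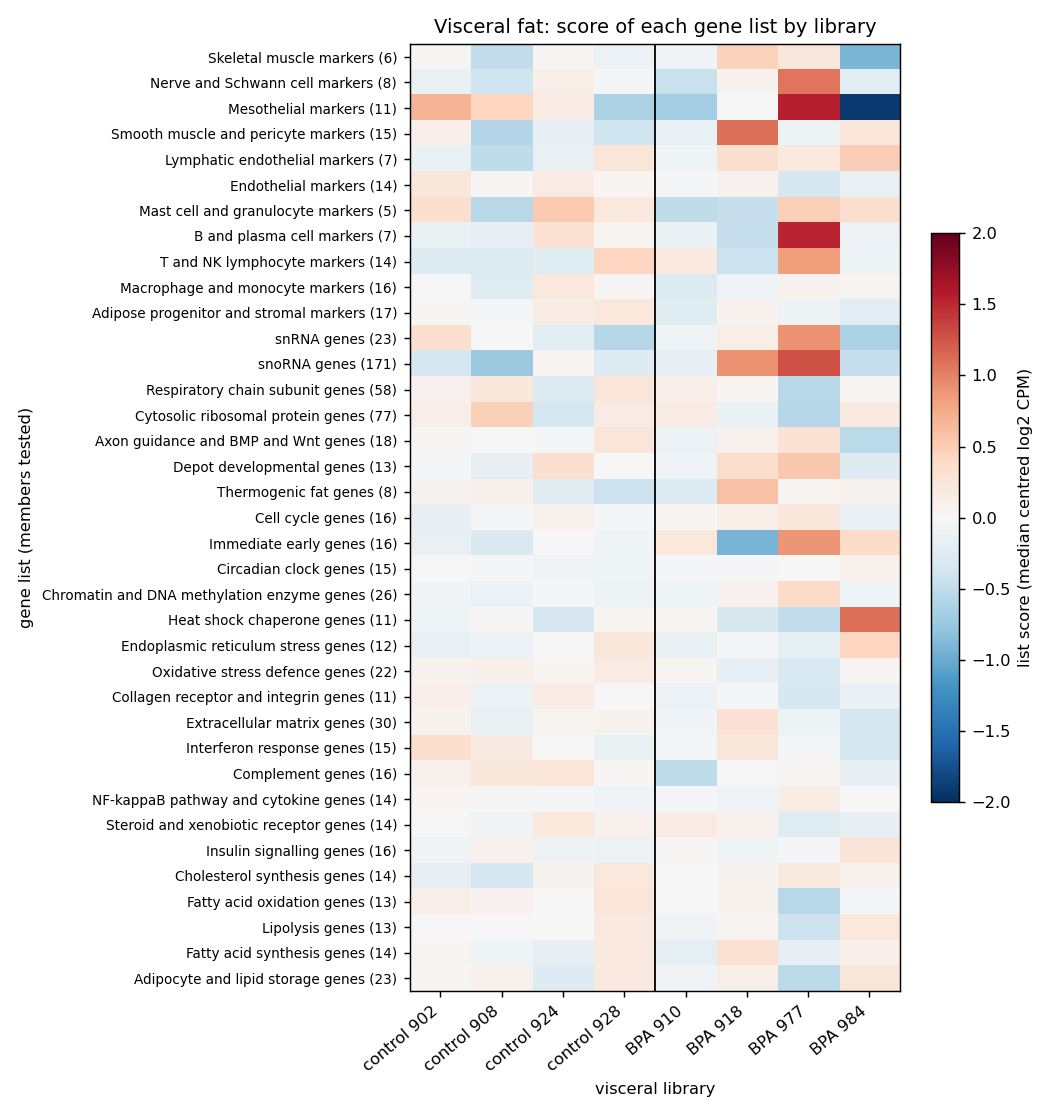
Score of 37 gene lists with at least 5 tested members (rows, with the number tested) in the 8 visceral libraries (columns, controls left of the black line): log2 CPM, less the average of the 8 libraries for each gene, as the median of a list's members. Many strong colors sit in 1 or 2 BPA libraries rather than across the 4. Examples are smooth muscle markers in 918 (1.11), mesothelial markers in 977 (1.55) and 984 (-1.92) and heat shock genes in 984 (1.10). Genes of snoRNAs are high in 918 (0.90) and 977 (1.27), and immediate early genes low in 918 (-0.93) and high in 977 (0.89). Controls hold strong colors too, such as snoRNA genes in 908 (-0.74).

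The BPA libraries differed from each other more than the controls did. Within the controls the correlation of log2 CPM between libraries ran from 0.957 to 0.973, and within the BPA group from 0.895 to 0.955, with the lowest 3 values all in pairs with BPA 977. Genes with a symbol that lay over 2-fold above or below all 7 other libraries were counted for each library, among 12456 tested. Controls had 4 to 10 such genes above and 13 to 37 below. BPA 910 had 6 above and 43 below, BPA 918 had 43 and 27, BPA 977 had 414 and 290, and BPA 984 had 17 and 115.

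**Figure D3:**
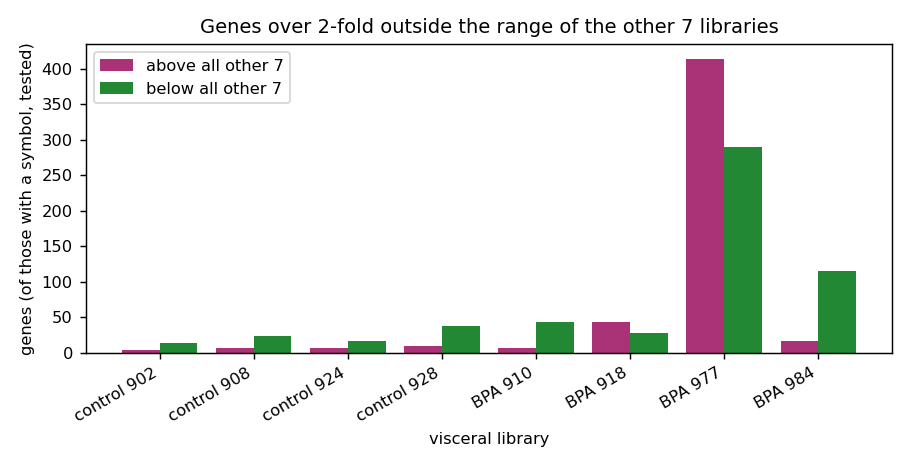
Number of genes with a symbol whose log2 CPM lay more than 1 above (purple) or below (green) all 7 other visceral libraries, by library. BPA 977 holds 414 and 290 such genes, while no control has more than 37 in either direction.

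The genes farthest from the other libraries differed between BPA libraries. In BPA 977 the widest gap among genes above the others was that of DGKI, a diacylglycerol kinase, at 69.9 CPM against 0 to 2.25 CPM. DTX3L, a ubiquitin ligase, had the widest gap among genes below, with 0 counts there against 5.51 to 18.4 CPM. IGFBP2, a binding protein of insulin-like growth factors, was at 71.2 CPM there against 1.59 to 5.43 CPM, and COL13A1, a transmembrane collagen, at 99.1 CPM against 1.81 to 10.4 CPM. The same library had the highest level of the mesothelial genes WT1, at 56.9 CPM against 10.5 to 22.4 CPM, and BNC1, at 58.4 CPM against 1.59 to 24.4 CPM. The summed level of all mesothelial markers was 84.6 to 175 CPM in the controls and 51.7 to 370 CPM with BPA. The score of B and plasma cell markers, over 7 tested members, was also highest in BPA 977 (1.52). Of these, CD22 was not highest there, at 4.48 CPM against 1.18 to 5.11 CPM. Listed B cell genes that failed the filter on counts went both ways. MS4A1 was at 2.17 CPM there against 0 to 0.892 CPM, and CD79B at 0 CPM against 0.107 to 0.597 CPM. Without BPA 977 the median log2 fold change of the mesothelial list went from 0.31 to -0.85 and that of the B and plasma cell list from 0.22 to -0.93. The part of these markers in the genes named above was not tested.

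In BPA 918 the genes above the others included contractile and channel genes. KCNK12, a potassium channel subunit, was at 61.7 CPM there against 0.0853 to 7.71 CPM in the others. DES, the muscle intermediate filament desmin, was at 264 CPM against 10.8 to 50.01 CPM, and CNN1, the smooth muscle calponin, at 110.2 CPM against 1.09 to 27.9 CPM. ITGA8, an integrin chain of smooth muscle and mesenchymal cells, was at 25.4 CPM against 0.909 to 5.27 CPM. In BPA 984 chaperones of the heat shock response had the widest gaps above the others. HSPA6, an inducible chaperone, was at 53.8 CPM against 1.73 to 4.33 CPM, and HSPH1, a nucleotide exchange factor of such chaperones, at 290 CPM against 52.6 to 84.6 CPM. The 11 tested heat shock genes had 10 higher estimates with a median of 0.23, which was -0.16 without BPA 984. HSPA1A, the main inducible chaperone of this response, was high in 2 BPA libraries, at 19.1, 17.6, 13.1 and 13.9 CPM in the controls and 49.4, 13.6, 18.6 and 45.5 CPM with BPA. BPA 984 was also the library with the least BNC1, at 1.59 CPM, and among its genes below the others was SHANK2, a scaffold protein of synapses, with 0 counts against 1.18 to 8.23 CPM.

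In BPA 910 the widest gap among genes above the others was that of FOSB, an immediate early transcription factor, and among genes below that of COPS9 (LOC105611998), a subunit of the COP9 signalosome, at 1.18 CPM against 12.1 to 30.2 CPM. FOSB was at 13.4, 3.001, 5.43 and 2.52 CPM in the controls and 143, 1.94, 36.8 and 13.7 CPM with BPA. FOS, its best known relative, was highest in BPA 977 instead, at 29.2, 22.5, 23.8 and 17.9 CPM against 26.6, 10.2, 98.9 and 13.1 CPM. In FOSB 3 BPA libraries lay above all controls and BPA 918 below all of them, and in FOS only BPA 977 lay above the controls. Of 16 immediate early genes 13 had higher estimates with a median of 0.36, which was -0.02 without BPA 977, and BPA 918 had the lowest score of the list (-0.93).

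Small nucleolar RNA (snoRNA) genes had mostly higher estimates. These short RNAs guide chemical modification of ribosomal and spliceosomal RNA, and in mammals most are cut from introns of longer host genes. Of 171 snoRNA genes tested, 153 had higher estimates and 58 of these an unadjusted p under 0.05, beside 5.11% of all genes; the median log2 fold change was 0.93. Only 5 had all BPA libraries above all controls, beside 2.36% of all genes. The higher levels belonged to a pair of libraries: snoRNA genes took 0.566% of all counts in BPA 918 and 0.941% in BPA 977, but 0.242% in BPA 910 and 0.216% in BPA 984, within the 0.158% to 0.339% of the controls. The median was 0.51 without BPA 977 and 0.01 without both BPA 918 and BPA 977. The share of counts in snoRNA genes was 0.244% ± 0.0749 in the controls and 0.491% ± 0.339 with BPA (SD, n = 4 each), and the 2-sided exact permutation test gave p = 0.286, with 0.0286 the smallest p that 4 against 4 allows. LOC114113403, a snoRNA gene that DESeq2 called with an adjusted p of 0.0427, was at 10.7, 4.73, 6.73 and 4.17 CPM in the controls and 20.7, 35.7, 74.7 and 8.01 CPM with BPA, where BPA 984 lay within the controls. Its log2 fold change of 2.39 was 1.69 without BPA 977.

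In the fit of all 8 libraries, host genes did not share the higher estimates of their snoRNAs. Of the 171 snoRNA genes, 160 lay inside a longer gene of the annotation and 159 had a tested host, on the same strand in all 159 and with 107 hosts in all. The snoRNA median over these was 0.89 and the host median -0.10, with 41 hosts at higher and 66 at lower estimates. In 141 of the 159 pairs the snoRNA estimate lay above that of its host. The contrast rests on BPA 918 and BPA 977, since the median of the 171 snoRNA genes was 0.01 without both. Hosts and snoRNAs were not compared without these libraries. Whether the counting used strand is not given in the sources used here, and reads of a host that cover the snoRNA could be counted for either.

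**Figure D4:**
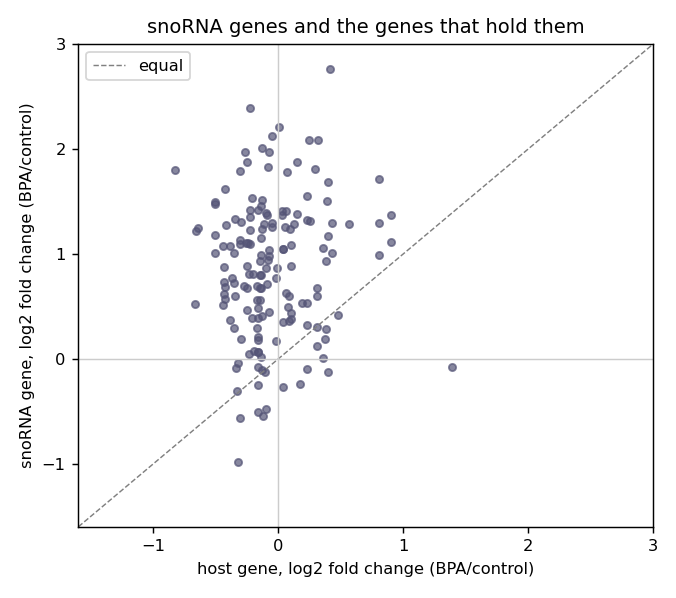
Log2 fold change (BPA over control, visceral) of 159 snoRNA genes against that of the gene that holds each, with the dashed line where both are equal. Points lie above the line for 141 of 159, the snoRNA median is 0.89 and the host median -0.10. Estimates use all 8 libraries, and without BPA 918 and BPA 977 the median of all 171 tested snoRNA genes was 0.01.

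Several other measures of the libraries were compared between groups in the same way. Genes with at least 1 count numbered 18914, 18480, 18665 and 18007 in the controls and 18084, 18022, 16926 and 17951 with BPA (exact permutation p = 0.0857, 2-sided; Benjamini-Hochberg adjusted 0.377 over 6 measures). Control 928 lay below 2 BPA libraries in this number. Thinned to the 6768945 counts of BPA 977, the mean was 483 genes lower with BPA (exact permutation p = 0.114).

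Subcutaneous fat of the same study was measured for the 24 visceral genes as well, although 5 of the title numbers, 3 of controls and 2 of BPA, occur in both depots and the comparisons are therefore not independent. In subcutaneous fat 96 of 13535 genes (0.709%) passed the adjusted threshold in edgeR's test. Of the 24 visceral genes 18 could be tested there and 0 were called, with Benjamini-Hochberg adjusted p from 0.111 to 0.972 in edgeR's test. DGAT1 had a log2 fold change of 0.80 ± 0.19 in visceral and 0.85 ± 0.21 in subcutaneous fat (SE, n = 4 per group in each). C7 stood at -1.15 ± 0.26 and -1.37 ± 0.49, RAB3B at -1.45 ± 0.37 and -1.80 ± 0.51, and CYBB at -0.78 ± 0.20 and -1.06 ± 0.32 in the same order. DDR2 had -0.73 ± 0.15 and -0.55 ± 0.18, and MFAP5 -0.90 ± 0.18 and -0.65 ± 0.28. Other genes had estimates near 0 outside visceral fat: NFKBIA had 0.73 ± 0.17 and 0.07 ± 0.20, HDGF 0.60 ± 0.15 and 0.13 ± 0.12, and PPM1K -0.85 ± 0.22 and 0.03 ± 0.28. MLXIPL and LMOD1 were called in subcutaneous fat, with log2 fold changes of 1.39 ± 0.19 and 1.30 ± 0.25 (edgeR adjusted p 0.00868 and 0.043), against 0.93 ± 0.27 and 1.17 ± 0.35 in visceral fat.

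The test of the difference itself, an interaction of BPA with depot over all 16 libraries, called 0 of 14793 genes (0%) with edgeR's quasi-likelihood test, with a smallest adjusted p of 0.649 and 917 genes (6.2%) at an unadjusted p under 0.05. None of these genes was therefore shown to differ in its BPA response between depots by this fit, which does not use the title numbers that the depots share. CPT1B had one of the wider gaps, at -0.75 ± 0.31 in visceral and 0.61 ± 0.29 in subcutaneous fat, a difference of -1.37 ± 0.43 on the log2 scale that did not pass the adjusted threshold. COL1A1, the main collagen of fibrous matrix, was at 614, 299, 497 and 499 CPM in visceral controls and 517, 842, 2383 and 238 CPM in visceral BPA libraries, a log2 fold change of 1.06 ± 0.56 with BPA 977 and of 0.15 without it, against -1.10 ± 0.23 in subcutaneous fat.

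**Figure D5:**
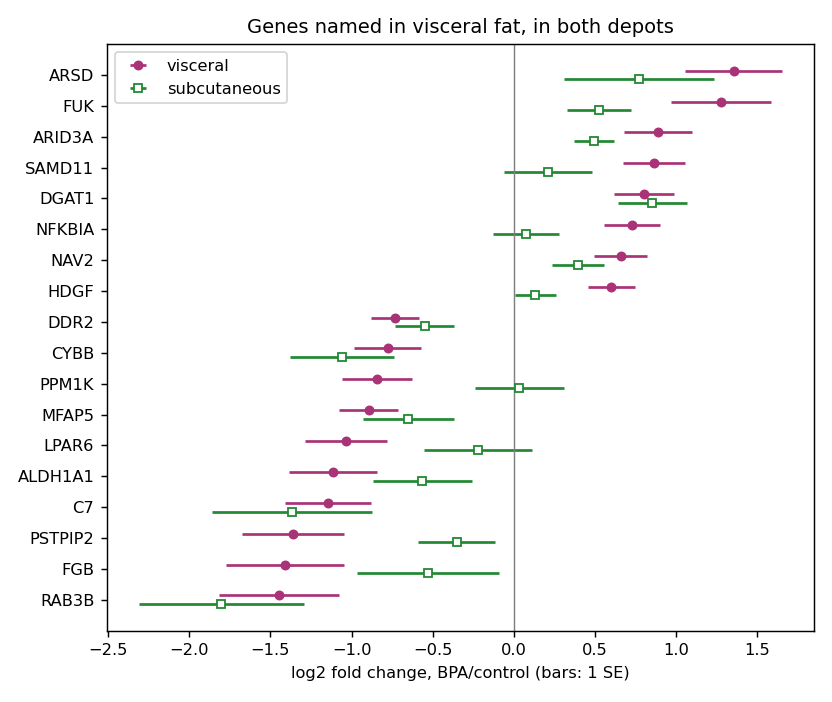
Log2 fold change (BPA over control, bars 1 SE) in visceral (filled circles) and subcutaneous fat (open squares) of the 18 of 24 visceral genes that were tested in both. DGAT1 (0.80 and 0.85) and C7 (-1.15 and -1.37) lie close together, while NFKBIA (0.73 and 0.07) and PPM1K (-0.85 and 0.03) do not; no difference passed the adjusted threshold.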

How the data were processed

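The authors deposited 1 table of whole read counts per gene for 16 libraries; its values are raw counts, although its file name calls them normalized. Per the submitters' processing notes, FastQC 0.11.5, MultiQC 0.9, STAR 2.6.0c and featureCounts of Subread 1.6.1 were used; neither the genome build nor the counting's strand is given in the sources used here, so no positions are printed. Per the labels' protocols, libraries came from a SMARTer low-input kit after ribosome depletion. RefSeq names matched 22718 of 28524 genes.

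The 4 BPA and 4 control visceral libraries were fitted alone with edgeR 4.0.16 (TMM scaling, filterByExpr with a minimum count of 10, quasi-likelihood test, Benjamini-Hochberg over all genes). DESeq2 1.42.0, limma 3.58.1, other filters and scalings, and leaving out each library were alternatives. Log2 CPM used a prior count of 2. The genes in the text are the 12 of smallest p in each direction with a symbol and genes that DESeq2 called. Not every DESeq2 call is pointed out as such. Also given are the member of smallest p of each list and up to 6 genes that set a library apart in each direction. A short set of fat genes was added, and others were chosen after their values were seen. The comparison, lists and rules were chosen with earlier results of these data known. Totals were 3046126 to 6223460 counts in the subcutaneous libraries, so that depot's values are less precise.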

Additional observations from a re-analysis of the deposited data

Results flagged for a closer look

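In groups of 4 libraries, the gap of the highest or lowest library to its nearest neighbor was divided by the range of the group, and groups above Dixon's 95% critical value were singled out. Of 210 groups examined, 14 exceeded it, and chance gives about 1 in 20. Most were BPA 977. SHANK1 (gap ratio 0.912, 22.4 CPM against 2.81 to 4.53 in the other BPA libraries), UHRF1 (0.917, 24.4 against 2.38 to 4.21 CPM), MCM2, a helicase subunit of DNA replication (0.890, 55.5 against 21.8 to 25.5 CPM), LTB, the lymphotoxin beta cytokine (0.912, 11.6 against 1.01 to 1.94 CPM), and DNMT1 (0.860, 190 against 100.03 to 113 CPM) were highest there. The number of genes with a count was lowest in BPA 977 (0.885, 16926 against 17951 to 18084), as were the scores of fatty acid oxidation genes (0.850, -0.55 against -0.03 to 0.07) and respiratory chain subunit genes (0.852, -0.56 against 0.03 to 0.14).

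BRSK1 was highest in BPA 918 (gap ratio 0.864, 3.56 against 1.44 to 1.73 CPM). Among controls, 908 was highest in MLXIPL (0.843, 67.9 against 50.9 to 53.6 CPM) and INSR (0.909, 569 against 402 to 417 CPM) and lowest in the extracellular matrix score (0.929, -0.15 against 0.06 to 0.08). Control 928 was highest in the lipolysis score (0.878, 0.19 against -0.01 to 0.01) and the T and NK lymphocyte score (0.953, 0.43 against -0.27 to -0.24).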

How the results depend on the processing

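The count of 0 called genes held in 18 alternatives, among them other scalings, filters, limma's voom method and leaving out each library (0 in each), but DESeq2 called 6 genes and a fit with the library total as covariate called 1, LOC101103644, lower with BPA (adjusted p 0.0441). At an adjusted p under 0.10 the main setting also called 0, while without control 928 the smallest adjusted p was 0.0796. At an unadjusted p under 0.05 the count ran from 609 without control 928 to 1776 without BPA 910, and was 1056 higher and 508 lower in the fit of all 16 libraries. The replicate block, by title number over both depots, also gave 0 calls with limma's voom method, and 0 for the difference between depots (smallest adjusted p 0.700); the numbers pair no libraries within the visceral comparison. Same-numbered libraries deviated together with correlations of 0.287, 0.400 and 0.332 for controls 902, 924 and 928 and 0.167 for BPA 918. Their highest correlations with another number were lower, at 0.0378, -0.0832, 0.00939 and 0.0131 in that order. BPA 977 had 0.0313 and correlated better with another number (0.1098). Because of BPA 977 alone, the numbers were not taken as pairs in the main fits. None of the 26 genes named by smallest p or called by DESeq2 reversed in the alternatives run. Their choice by p in the same data made a reversal unlikely, so this is no separate support for them. The genes that reversed had main log2 fold changes from -0.24 to 0.09, except COL1A1 (1.06) and LOC114117038 (1.21). With the library total as covariate log2 fold changes were 0.17 for PPARG, 0.036 for ESR1, 0.12 for INSR, -0.36 for COL1A1 and -0.0019 for the snRNA gene LOC114117038, and without both BPA 918 and BPA 977, an alternative chosen after seeing the data, 0.16, 0.080, 0.22, -0.34 and -0.23 in the same order. SCD was at 0.049 under the block. Leaving out 1 library in turn gave log2 fold changes of -0.29 to 0.091 for PPARG, -0.32 to 0.11 for SCD, -0.31 to 0.047 for INSR and -0.043 to 0.16 for CD68; control 908 reversed all of these, BPA 977 PPARG and INSR, BPA 910 SCD, and BPA 984 CD68. The snRNA median without genes under 200 bases and the lymph node list at 50 counts in 4 libraries had no tested member. Depth limits genes of few counts such as BRSK1, SLCO4A1 and SHANK1, and BPA 977 has the lowest total.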

Other observations

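A pair of genes outside the rule for named genes were chosen after their values were seen, because they were nearly absent from libraries of the same title number in both depots. PRKDC, the catalytic subunit of DNA-dependent protein kinase, was at 2.20 CPM in visceral control 928 and between 42.1 and 89.2 CPM in the 7 other visceral libraries. On the scale of all 16 libraries it was at 1.88 CPM in subcutaneous control 928 and between 40.2 and 146 CPM in the other 7 subcutaneous libraries. LOC114118863, a gene without a symbol, was at 7.25, 8.18, 6.49 and 0 CPM in visceral controls 902, 908, 924 and 928 and at 0.107, 0.108, 0.289 and 0 CPM in BPA 910, 918, 977 and 984. In subcutaneous fat it was at 6.55, 5.52, 0.157 and 5.53 CPM in controls 902, 924, 928 and 931 and at 0, 4.97, 0 and 2.70 CPM in BPA 918, 922, 941 and 977. The cause of these patterns was not tested.

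RPS3A, a protein of the small ribosomal subunit, differed between libraries over a wide range, at 248, 648, 137 and 218 CPM in the controls and 850, 840.5, 363 and 1224 CPM with BPA; it has near-identical copies, so its counts are uncertain. TTN, the giant spring protein of striated muscle, was at 7.34, 8.37, 3.65 and 8.10 CPM in the controls and 2.14, 0.972, 3.61 and 3.61 CPM with BPA, without overlap. Its list did not share that direction. Of 6 tested skeletal muscle markers 4 had higher and 2 lower estimates (median 0.20, and 0.04 without BPA 977).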
